A study of Mus musculus with 64 samples.

Results

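The 40 genes described here carry a cell through mitosis and cytokinesis. They were taken by name, as a list of textbook genes of chromosome segregation and cell division, and all 40 were found among the 26286 genes of the deposited table and passed the filter on low values in each of the 18 comparisons. By role they are 7 cyclins, Cdk1 and its activators, 5 mitotic kinases, 3 spindle checkpoint genes, 3 genes of anaphase onset, 3 chromosomal passengers, 6 kinetochore and centromere genes, 6 spindle motors and microtubule proteins, 5 genes of the central spindle and cytokinesis, and 2 genes of chromosome structure and surface. RNA was sequenced from whole tissue and from 2 sorted progenitor populations of bone marrow and spleen of scat mice, 64 libraries from 18 mice in all. The mutants are homozygous for the scat allele of Rasa3 (scat/scat) on the strain CbyJ.Cby-Rasa3(scat)/Llp, and wild-type (WT) mice of that strain are +/+. Scat is a missense allele carried by every cell of the mouse, so the level of Rasa3 RNA is no check of the labels, and effects of the mutation inside and outside blood cells cannot be told apart here. The Rasa3 protein shuts down the small GTPases Ras and Rap1.

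Crisis mice (18 libraries of 3 scat/scat mice, 23 to 28 days old) were sampled in the anemic crisis of the disease. Young WT mice (18 libraries of 7 mice) had the same age range. Remission mice (17 libraries of 5 mice, 32 to 58 days old) were scat/scat mice in partial remission, a state that the submitters define by red cell measures lying between those of WT and crisis. Older WT mice (10 libraries of 3 mice) were 32 to 58 days old. Crisis, young WT and remission have 3 libraries in every population, apart from spleen MEP with 2 remission libraries. Older WT has 2 libraries a population, apart from whole spleen and spleen SMP with 1. MEP are megakaryocyte-erythroid progenitors, the shared precursors of red cells and platelets. SMP are stem and myeloid progenitors sorted as Lin-, Sca-, Kit+, CD34+ and CD16/32lo cells. Remission mice were older than crisis mice, so that age and state cannot be told apart between them. Most mice gave libraries of several populations. Each library is a separate mouse within its group.

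The markers of the sorted cells followed the labels. In young WT bone marrow all 7 stem and early progenitor genes were lower in MEP than in SMP (median log2 difference -3.21), and all 11 erythroid genes were higher (4.07). In young WT spleen the same 7 were lower (-4.83), and 8 of the 11 were higher (2.78). Libraries held 33600609 to 107616173 normalised counts in total. Rasa3 itself stood at 13421, 12661 and 13062 rescaled normalised counts in the young WT spleens and at 2121, 3335 and 3352 in the crisis spleens (log2 change -2.18, SE 0.184, adjusted p = 4.83e-05, limma). Among the other populations it passed the test in spleen SMP (-0.95, SE 0.235, adjusted p = 0.0293). Libraries that stand apart among the mitosis genes are those of remission mouse 2726 (58 days old) and the whole spleen of mouse 27265. Mouse 2726 was lowest of its group for 40 of 40 genes in whole spleen and in whole bone marrow. It was lowest for 39 in bone marrow SMP and for 23 in bone marrow MEP. The labels assign the whole spleen of mouse 27265 in conflicting ways, and that library entered no comparison. Mouse 27265 was also 58 days old, and its other libraries are counted as older WT. Counts by the place of a single library were made over the 40 genes only.

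Mitosis is driven by Cdk1 bound to cyclin A or B, which the Cdc25 phosphatases switch on and which, with the Aurora and Polo kinases, condenses the chromosomes and builds the spindle. The spindle checkpoint holds the cell until each kinetochore is attached. Cdc20 then turns on the anaphase-promoting complex, which with the ubiquitin carrier Ube2c destroys cyclin B and securin (Pttg1), and the central spindle and anillin direct the cut between the daughter cells. Most of these genes are transcribed late in the cell cycle, through cell cycle homology (CHR) elements bound by the DREAM and MuvB complexes and by Foxm1 and B-Myb, and through CCAAT boxes bound by NF-Y. In anemia the mouse spleen becomes a site of red cell formation, where erythroid precursors divide several times as they mature.

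The promoter letters that such complexes are known to read were counted in RefSeq windows of 250 bases before to 50 bases after the gene's start (GRCm38.p6), which the table gave for 33 of the 40 genes in 36 windows. The letters TTTGAA, the core of the CHR element, were searched on both strands (TTCAAA on the other) and were found in 27 of 36 windows (75%), against 17.9% of all 32851 windows. CCAAT, which reads ATTGG on the other strand, was found in 27 windows as well (75%), against 37.4% of all windows. Both were found in 23 windows (63.9%, against 6.95% of all), and 19 windows held CCAAT at least 2 times (52.8%, against 11.7%). The 2 motifs can overlap by 1 end letter at most. The stretches of 5 genes from different roles are shown because they hold these letters, and that of Birc5 because its whole window holds neither. The 250 bases before the RefSeq start are printed 5′ to 3′ on the gene's own strand, with the TTTGAA and CCAAT letters of either strand in capitals. They are Cdk1 (chr10:69352913-69353162, minus strand), Ccnb2 for cyclin B2 (chr9:70421555-70421804, minus), Cdc20 (chr4:118437344-118437593, minus), the spindle motor Kif11 (chr19:37376132-37376381, plus), the kinetochore gene Spc25 (chr2:69206214-69206463, minus) and the passenger gene Birc5 (chr11:117848987-117849236, plus). All 6 lie upstream of the gene and outside other RefSeq genes, while GENCODE M21 transcripts reach 26 bases into the Cdk1 stretch and 9 into that of Cdc20.
Cdk1: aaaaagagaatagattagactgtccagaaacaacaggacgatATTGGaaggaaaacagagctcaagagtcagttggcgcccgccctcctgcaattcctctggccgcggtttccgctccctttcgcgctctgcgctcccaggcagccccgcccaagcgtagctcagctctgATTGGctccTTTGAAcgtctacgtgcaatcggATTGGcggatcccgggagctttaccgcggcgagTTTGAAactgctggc
Ccnb2: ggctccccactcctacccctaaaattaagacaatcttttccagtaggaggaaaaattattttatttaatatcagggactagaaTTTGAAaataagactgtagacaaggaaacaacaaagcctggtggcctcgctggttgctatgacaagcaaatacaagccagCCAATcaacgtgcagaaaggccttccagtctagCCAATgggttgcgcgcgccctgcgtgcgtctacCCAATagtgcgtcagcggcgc
Cdc20: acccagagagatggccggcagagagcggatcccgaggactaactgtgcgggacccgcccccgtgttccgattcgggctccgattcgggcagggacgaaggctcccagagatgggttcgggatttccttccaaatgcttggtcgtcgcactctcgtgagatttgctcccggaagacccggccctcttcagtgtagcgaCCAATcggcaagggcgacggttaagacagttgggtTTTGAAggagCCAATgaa
Kif11: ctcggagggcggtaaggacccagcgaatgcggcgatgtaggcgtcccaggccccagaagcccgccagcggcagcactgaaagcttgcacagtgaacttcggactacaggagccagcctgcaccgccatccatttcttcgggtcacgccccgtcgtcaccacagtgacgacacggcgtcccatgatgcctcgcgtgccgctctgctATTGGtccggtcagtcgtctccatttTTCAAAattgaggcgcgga
Spc25: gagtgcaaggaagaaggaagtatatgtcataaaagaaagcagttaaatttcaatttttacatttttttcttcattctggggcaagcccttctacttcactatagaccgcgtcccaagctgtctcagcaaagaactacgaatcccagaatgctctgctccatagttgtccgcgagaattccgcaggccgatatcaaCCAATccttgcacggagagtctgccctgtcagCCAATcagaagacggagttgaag
Birc5: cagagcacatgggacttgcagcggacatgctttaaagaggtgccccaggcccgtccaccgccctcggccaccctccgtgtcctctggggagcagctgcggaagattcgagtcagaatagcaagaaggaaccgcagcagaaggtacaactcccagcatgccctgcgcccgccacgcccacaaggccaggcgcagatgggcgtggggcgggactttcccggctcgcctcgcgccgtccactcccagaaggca

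In Cdc20 the TTTGAA letters begin 18 bases before the start and in Kif11 19 bases before it. In Cdk1 they begin 71 and 15 bases before the start. Ccnb2 carries 3 CCAAT, beginning 87, 54 and 21 bases before its start, and Spc25 carries 2, beginning 55 and 23 bases before. The last TTTGAA of Ccnb2 and that of Spc25 lie after the start, beyond the printed bases. Besides Birc5, the windows of Mad2l1, Nuf2, Nusap1 and Pttg1 hold neither set of letters. Every mitosis gene described here rose in whole spleen in crisis, so the rise of these 5 says nothing about the letters. Over the genes with a window, the median change in whole spleen was 1.14 for the 24 with TTTGAA and 1.15 for the 9 without, and 1.15 for the 24 with CCAAT and 1.09 for the 9 without. In spleen SMP in crisis it was 0.66 with TTTGAA and 0.91 without, and 0.68 with CCAAT and 0.62 without. A match is a description of the letters in the window, and these medians carry no test. The part of the letters in the changes was not tested.

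In whole spleen in crisis, all 40 genes rose (median log2 change 1.13, from 0.59 for Bub3 to 1.54 for Ccnb1), and 33 of them at least 2-fold. Over all 16109 genes tested 22.9% were higher, 23.9% were lower, 46.7% passed in either direction and the median change was -0.04 (limma on log2 of the rescaled normalised count plus 1, adjusted p under 0.05, 3 crisis against 3 young WT spleens). Adjusted p of the 40 ran from 0.000166 to 0.0202. The 3 crisis spleens lay above all 3 young WT spleens for each of the 40 genes, which held for 28.4% of all genes (29.7% were lower in all 3). With all 4 groups of whole spleen in 1 fit, whose spread then includes remission mouse 2726, 0 of the 40 passed, and without that mouse 40 did. With columns set to a total of 1000000 the median of the 40 was 0.66, that of all genes -0.51, and 35 passed. For these other fits the share of all genes called is not given. The share of called genes that were higher went from 49% to 16.7% with that scaling and to 32.4% with the columns as deposited. Markers of cell types moved in the same spleens: 9 of 11 erythroid markers rose (median 1.11), and all 8 B cell markers and all 8 T and NK cell markers fell (medians -3.58 and -3.12). The summed level of the B cell markers was 1683 to 2005 per 1000000 normalised counts in young WT and 91.89 to 169.1 in crisis, that of the T and NK cell markers 274.7 to 397.4 and 13.92 to 38.9, and that of the erythroid markers 150655 to 153644 and 157269 to 234898. No marker of these lists was at 0 in every library, and the part of these cells in the rise was not tested. In bulk tissue, more cells of a type and more RNA per cell cannot be told apart.

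**Figure D1:**
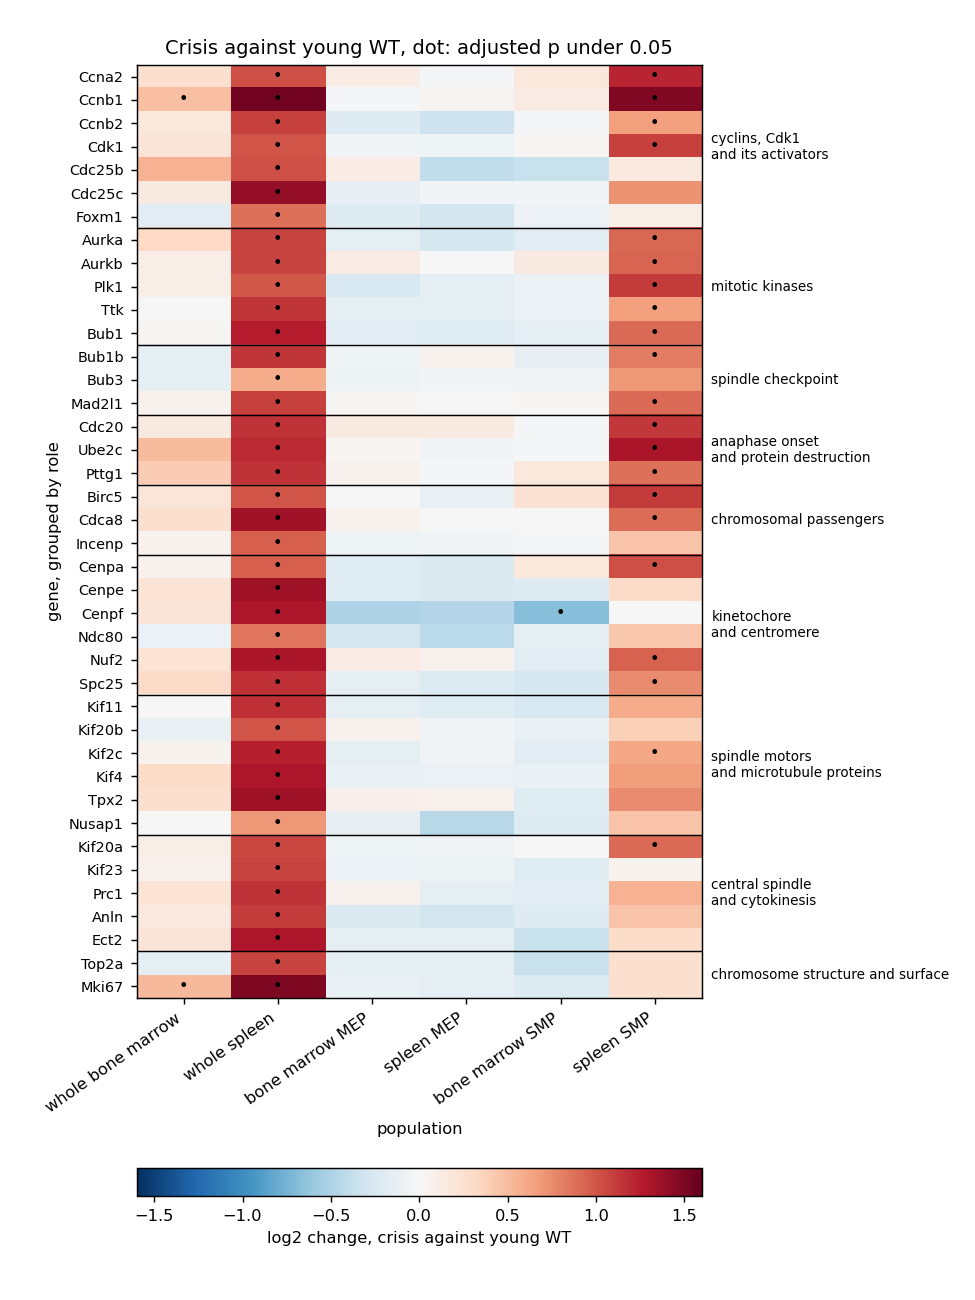
Log2 change between crisis and young WT (colour, limma) of the 40 mitosis and cytokinesis genes (rows, grouped by role) in the 6 populations (columns), with a dot where the adjusted p is under 0.05. The whole spleen column has a dot in all 40 rows and the spleen SMP column in 21, while the bone marrow and MEP columns hold 3 dots in all.

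Among the cyclins, Cdk1 and its activators, 7 of 7 rose in whole spleen (median 1.03). Ccnb1, cyclin B1, the partner that brings Cdk1 into mitosis, was read at 12137, 9408 and 7587 rescaled normalised counts in the young WT spleens and at 30354, 28622 and 24721 in crisis. Its change was the highest of the 40 (log2 1.54, SE 0.186, adjusted p = 0.00029), a ratio of 2.92, and the crisis spleens lay far above the young WT spleens. Cdk1, the kinase itself, stood at 10140, 9404 and 8740 in young WT and at 21898, 19744 and 15724 in crisis (1.01). Cdc25c, the phosphatase that activates the Cdk1 and cyclin B pair at mitotic entry, was the least abundant of the group at 1603, 1055 and 815.2 in young WT. It reached 3257, 2655 and 2935 in crisis (1.40, SE 0.234, adjusted p = 0.00149). Foxm1, the transcription factor of the late cell cycle, rose less, from 8248, 6051 and 5219 to 14537, 10795 and 10436 (0.88).

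All 5 mitotic kinases rose (median 1.08). Plk1, the Polo kinase of centrosomes and spindle, was at 8712, 6166 and 6164 in young WT and at 17663, 12571 and 11704 in crisis (0.99). Aurkb, the kinase of the chromosomal passenger complex that corrects wrong attachments, was at 8149, 6084 and 5466 against 15299, 12987 and 12885 (1.08). Crisis replicate 1 (mouse 2608) was the highest for both, as it was for 39 of the 40 genes. Bub1, the checkpoint kinase at kinetochores, changed by 1.26, Ttk, which starts checkpoint signalling, by 1.14 and Aurka, the spindle pole kinase, by 1.08. The passenger subunits Cdca8 (borealin, 1.34), Birc5 (survivin, 1.01) and Incenp (0.96) rose with Aurkb.

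The spindle checkpoint genes all rose (3 of 3), and 1 of them had the lowest change of the 40. Bub3, the adaptor that brings Bub1 and Bub1b to kinetochores, went from 7128, 6068 and 6907 to 11375, 9687 and 9314, without overlap (0.59, SE 0.135, adjusted p = 0.00672). Bub1b, which encodes the BubR1 inhibitor of Cdc20, went from 9717, 8138 and 6310 to 20667, 17171 and 14932 (1.14). Mad2l1, the Mad2 inhibitor of Cdc20, changed by 1.09. On the side that ends mitosis, Cdc20, the activator of the anaphase-promoting complex, was at 8806, 6792 and 6508 in young WT and at 18391, 16030 and 14507 in crisis (1.15). Ube2c, its ubiquitin carrier, changed by 1.19 and Pttg1, securin, which holds separase inactive, by 1.15. Checkpoint genes and the genes they hold back both rose.

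Kinetochore and centromere genes had a median of 1.23 (6 of 6 rose) and the spindle motors and microtubule proteins one of 1.20 (6 of 6). Cenpe, the kinesin that carries chromosomes to the spindle's middle, was at 14535, 10901 and 8475 in young WT and at 34082, 27574 and 24254 in crisis (1.36). Cenpf, a kinetochore protein of late G2, changed by 1.29, and Ndc80, the microtubule-binding core of the kinetochore, by 0.86 (SE 0.192, adjusted p = 0.00611). Kif11, the motor that pushes the spindle poles apart, was at 20409, 18520 and 13519 against 45879, 37896 and 33560 (1.17). Nusap1, which bundles spindle microtubules, was low in the order at 21749, 20078 and 16098 against 39427, 31404 and 24262 (0.70, SE 0.203, adjusted p = 0.0202). Here the lowest crisis spleen, mouse 2953, lay closest to the highest young WT spleen. Oip5 overlaps Nusap1 on the genome, and whether the counting used strand is not given in the sources used here. The same holds for Ccna2 with Exosc9, Cdc20 with Elovl1, Aurka with Cstf1, Kif20a with Brd8 and Cdc23, Prc1 with Rccd1 and Foxm1 with Tex52, and Ccnb1 and Ccnb2 have a named pseudogene copy each in the table, so that reads of these genes may be shared.

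All 5 genes of the central spindle and cytokinesis rose (median 1.12). Anln, anillin, which ties actin and myosin into the contractile ring, was at 9667, 8695 and 6109 in young WT and at 23170, 17381 and 13125 in crisis (1.12). Ect2, the exchange factor that turns on RhoA at the division plane, changed by 1.29, Prc1, the bundler of the central spindle, by 1.15, and the kinesins Kif23 and Kif20a by 1.08 and 1.07. Top2a, the topoisomerase that untangles sister chromatids, was at 52259, 43652 and 35234 against 114890, 90970 and 72241 (1.08). Mki67, which coats mitotic chromosomes and is the antigen of the Ki-67 stain, was at 268450, 178789 and 141975 against 695666, 570806 and 380725 (1.49, SE 0.303, adjusted p = 0.00383). Mki67 alone made up 14.4 to 40.5% of the summed level of the 40 genes, depending on the library.

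**Figure D2:**
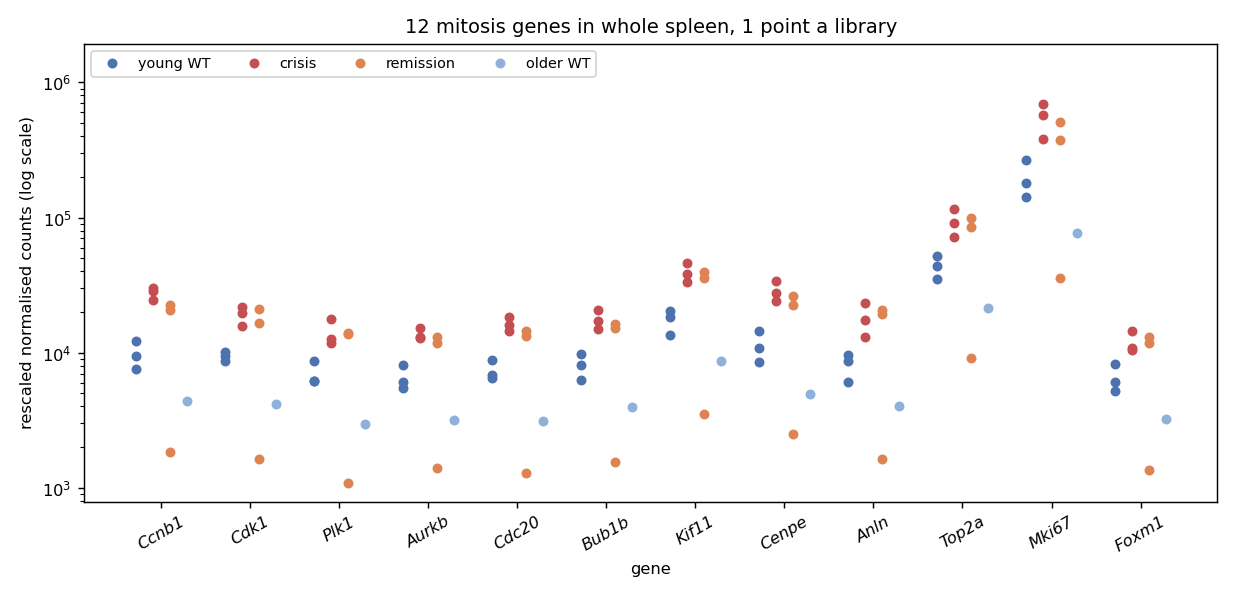
Rescaled normalised counts (log scale) of 12 of the genes in each whole spleen library, 1 point a library, coloured by group. Crisis spleens lie above the young WT spleens for each gene, for Ccnb1 at 24721 to 30354 against 7587 to 12137, and 1 remission spleen lies below them all.

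Related genes were counted in lists drawn up by function. Of 45 other mitosis genes, 44 rose in whole spleen and 1 fell (median 1.18), with the centromere gene Cenpw (1.63) and the condensin gene Ncapg (1.62) highest and Cep55 lowest (-1.33). All 25 DNA replication genes rose (median 1.03), among them cyclin E2 (Ccne2, 1.54) and the ribonucleotide reductase subunit Rrm2 (1.29). The anaphase-promoting complex and its regulators gave 8 of 16 that rose (median 0.36). Its late activator Fzr1 (1.24) and its inhibitor Fbxo5 (1.10) were highest, while the subunits Anapc11 (-0.09) and Anapc4 (0.03) did not pass. Of 12 factors of the complexes that bind CHR elements or CCAAT boxes, 10 rose (median 0.93), led by the MuvB subunit Lin54 (1.32) and by Mybl2, B-Myb (1.23). Lin37 (-0.09) and the NF-Y subunit Nfya (0.25) did not pass.

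Cell cycle brakes moved both ways in the same spleens. Of 14, 8 rose and 2 fell (median 0.65). Cdkn1a, the p21 inhibitor of cyclin-dependent kinases, rose most (log2 3.19, SE 0.334, adjusted p = 0.000146), and Gadd45a, a stress-induced brake on Cdk1, by 1.6. Btg1, an antiproliferative gene of quiescent lymphocytes, fell by 1.5 and Rbl2, the p130 pocket protein of resting cells, by 0.95 on the log2 scale.

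In whole bone marrow the same crisis mice gave 2 called genes of 40, where 4.75% of all 16194 genes were higher, 4.17% were lower and 8.92% passed in either direction. Ccnb1 was at 10515, 10274 and 11075 in young WT and at 15446, 15040 and 13843 in crisis (log2 0.48, adjusted p = 0.0326), and Mki67 at 139487, 138111 and 142692 against 227666, 187909 and 189991 (0.52, SE 0.127, adjusted p = 0.0433). The median of the 40 was 0.14, with 32 values above 0. Cdc25b, the phosphatase of early mitotic entry, had the highest value (0.56, SE 0.165, adjusted p = 0.0725) and Foxm1 the lowest (-0.17, adjusted p = 0.505). In 4 of the 40 all 3 crisis marrows were above all 3 young WT marrows (15.3% of all genes, with 17.5% lower), and in 0 were they below. Mouse 2608 was highest of the crisis marrows for 40 of 40 genes and above every young WT marrow for 38, while mouse 2953 was above them for 5 and below them for 17. The share of all genes placed so in a single library is not given here. The 2 calls were 1 without mouse 2608 and 0 without mouse 2629, without mouse 2953 or without any of the 3 young WT mice. No share of all genes called is given for those fits. With columns set to a total of 1000000 the median was -0.13 with 8 values above 0, where the median of all genes was -0.26. Markers moved in marrow too. Of the erythroid markers 7 of 11 rose (median 0.94), of the macrophage markers 3 of 6 rose and of the megakaryocyte markers 2 of 6 fell. Of the B cell markers 1 of 8 passed and fell, while all 8 had values below 0 and an unadjusted p under 0.05 (median -3.18), and their sum was 1741 to 2097 per 1000000 normalised counts in young WT and 88.18 to 797.8 in crisis. Their part in the 2 calls was not tested. Among the brakes Cdkn1a (1.87) and Gadd45a (1.24) rose.

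The difference between the organs was itself tested. The crisis effect was larger in whole spleen than in whole bone marrow for 37 of the 40 genes (median log2 difference 0.93), and none was smaller. In all 16314 genes the effect was larger in spleen for 10.9% and smaller for 16% (limma with the mouse as a block). Bub1b differed most (1.23, SE 0.196, adjusted p = 0.00074), followed by Cdc25c (1.19) and Bub1 (1.17). The 3 that did not pass were Nusap1 (0.65, adjusted p = 0.0535), Ube2c (0.64, adjusted p = 0.0703) and Cdc25b (0.42, adjusted p = 0.13). Of the erythroid markers 0 of 11 passed this test (median 0.29), and of the T and NK cell markers 8 of 8 did (median -3.91). With the deposited columns not rescaled the count was 2, with the same median of 0.93, and the share of called genes with a larger effect in spleen was 4% in place of 40.5%. How many of all genes were called there is not given.

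MEP showed no called gene among the 40 in crisis in either organ. In bone marrow MEP the median change was -0.10 (range -0.49 to 0.14, against 0.203% of all genes called), and in spleen MEP it was -0.11 (-0.47 to 0.14, 1.2% called). The sign in spleen MEP depended on the scaling: 7 of 40 values were above 0 here, against 29 with the columns as deposited (median 0.10, all genes 0.19). At an unadjusted p under 0.05 the counts were 1 and 7 of 40, with no share of all genes given. Ccnb1 was at 12797, 11938 and 11969 in the young WT spleen MEP and at 13297, 13257 and 11349 in crisis, so the groups overlapped. Cdk1 was at 7692, 7698 and 7950 against 7607, 7402 and 7213, where all 3 crisis libraries were lower. Cenpf had the lowest value in both organs, 7285, 6828 and 6082 against 5287, 4638 and 4656 in spleen (-0.47, SE 0.104, adjusted p = 0.0715), and -0.49 in bone marrow (adjusted p = 0.344). In bone marrow MEP the crisis and young WT libraries overlapped for all 40 genes (10.3% of all genes were higher in all 3 crisis libraries and 8.9% lower). In spleen MEP 10 of the 40 genes were lower in all 3 crisis libraries than in all 3 young WT libraries (14.7% of all genes were), and 0 were higher (13.6%). In the test of the difference between the organs' MEP 0 of the 40 passed (median -0.02, 0% of all genes called, 0 at an unadjusted p under 0.05). Its sign also depended on the scaling, with 17 values above 0 here and 38 with the columns as deposited (median 0.22, all genes 0.23). Without crisis mouse 2608 there were 3 calls in bone marrow MEP and 2 in spleen MEP, again with no share of all genes given. A p that misses the threshold does not show that the levels were equal.

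**Figure D3:**
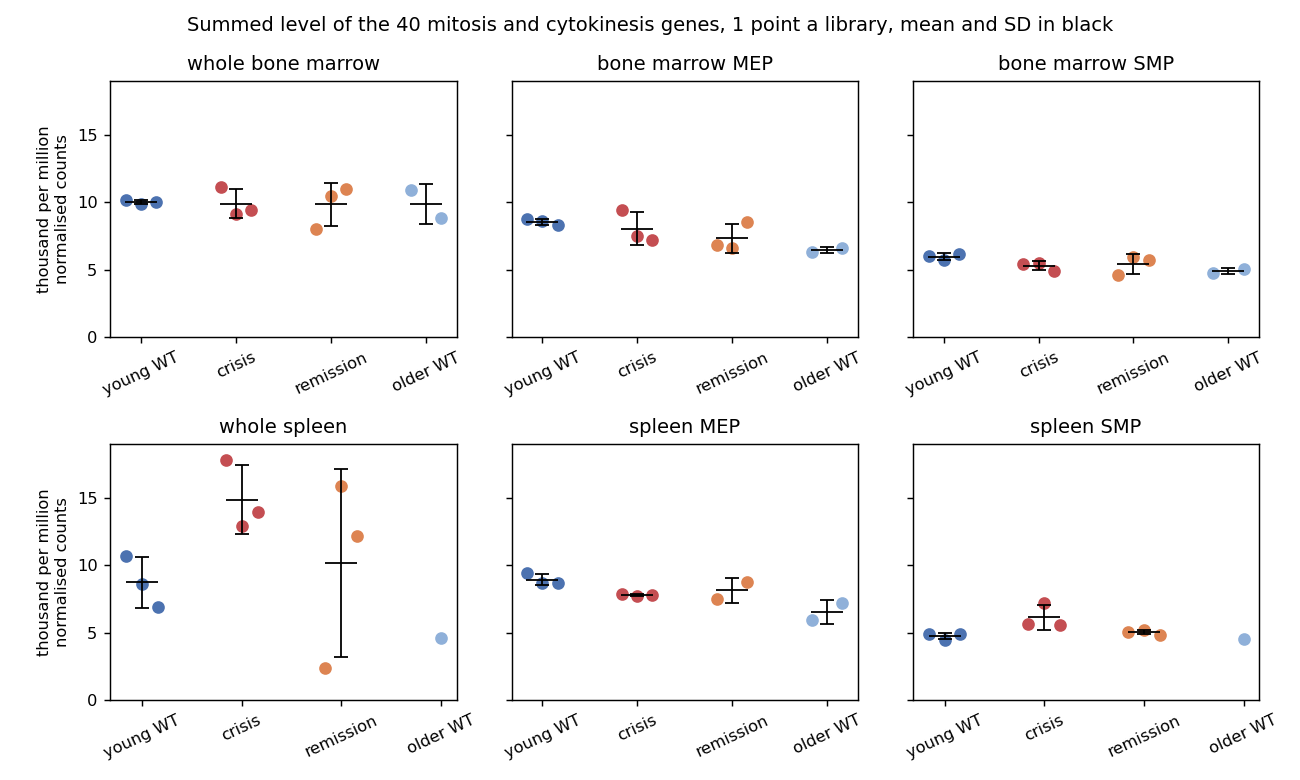
Summed level of the 40 genes as a share of the library, in units of 1000 per 1000000 normalised counts (vertical axis), 1 point a library, by population and group, with the mean and SD in black. Crisis libraries of whole spleen lie at 12882 to 17776 per 1000000 against 6856 to 10666 in young WT, and those of spleen SMP at 5547 to 7194 against 4455 to 4879.

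In spleen SMP in crisis, of the 40 genes 21 rose and 0 fell (median 0.71, range -0.01 to 1.48), where 12.9% of all 15434 genes were higher and 24.2% passed in either direction. In 33 genes all 3 crisis libraries were above all 3 young WT libraries, which 25.7% of all genes were. By role, 5 of 5 mitotic kinases rose, 3 of 3 genes of anaphase onset, 2 of 3 checkpoint genes, 2 of 3 passengers, 4 of 7 of the cyclin group, 3 of 6 kinetochore genes, 1 of 6 motors and microtubule proteins, 1 of 5 genes of cytokinesis, and neither Top2a nor Mki67. The 21 calls were lost without any 1 of the 3 young WT libraries or without crisis mouse 2953, were 29 without crisis mouse 2608 and were 18 without crisis mouse 2629, and the median stayed between 0.52 and 0.89 in all 6 cases. With the authors' regularised log2 values the count was 0 (median 0.57), and with the deposited columns not rescaled it was 1 (0.20, where the median of all genes was -0.55, and 6.6% in place of 53.6% of called genes were higher). With columns set to a total of 1000000 it was 15 (0.47, where the median of all genes was -0.28). The share of all genes called in these other fits is not given, so their counts are no result about the 40 genes alone.

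Ccnb1 was again highest. It was at 4108, 4784 and 4670 in the young WT SMP and at 8038, 22244 and 11045 in crisis (log2 1.48, SE 0.325, adjusted p = 0.0278). Ube2c was at 3602, 4110 and 3652 against 6246, 14896 and 8610 (1.30, SE 0.285, adjusted p = 0.0278), and Ccna2, cyclin A2, at 8145, 7462 and 7956 against 12466, 28079 and 17321 (1.22, SE 0.27, adjusted p = 0.0278). The young WT values lie close together, while crisis mouse 2629 stands well above the other 2 crisis mice in all 3 genes, and it was highest for 39 of the 40. Cdk1 was at 4046, 3910 and 4075 against 5746, 12844 and 8462 (1.09), Plk1 at 2981, 3176 and 3317 against 4671, 11506 and 6008 (1.12), and Cdc20 at 4832, 4754 and 4780 against 6848, 17594 and 9510 (1.13). Aurkb was at 4067, 3776 and 4550 against 6076, 9972 and 7986 (0.93). In these 4 genes too the groups did not overlap.

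Genes at the low end overlapped. Cenpf was at 5792, 6432 and 5643 in young WT and at 5884, 7256 and 4867 in crisis (log2 -0.01, adjusted p = 0.985). Kif23, the central spindle kinesin, had 0.05 (adjusted p = 0.888) and Foxm1 0.10, at 4678, 4630 and 6848 against 5548, 5920 and 5532 (adjusted p = 0.723). Mki67, among the highest in whole spleen, was at 45795, 49358 and 54872 against 56213, 75774 and 48691 here (0.25). All 4 rose in whole spleen, and whole spleen and spleen SMP were not tested against each other.

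**Figure D4:**
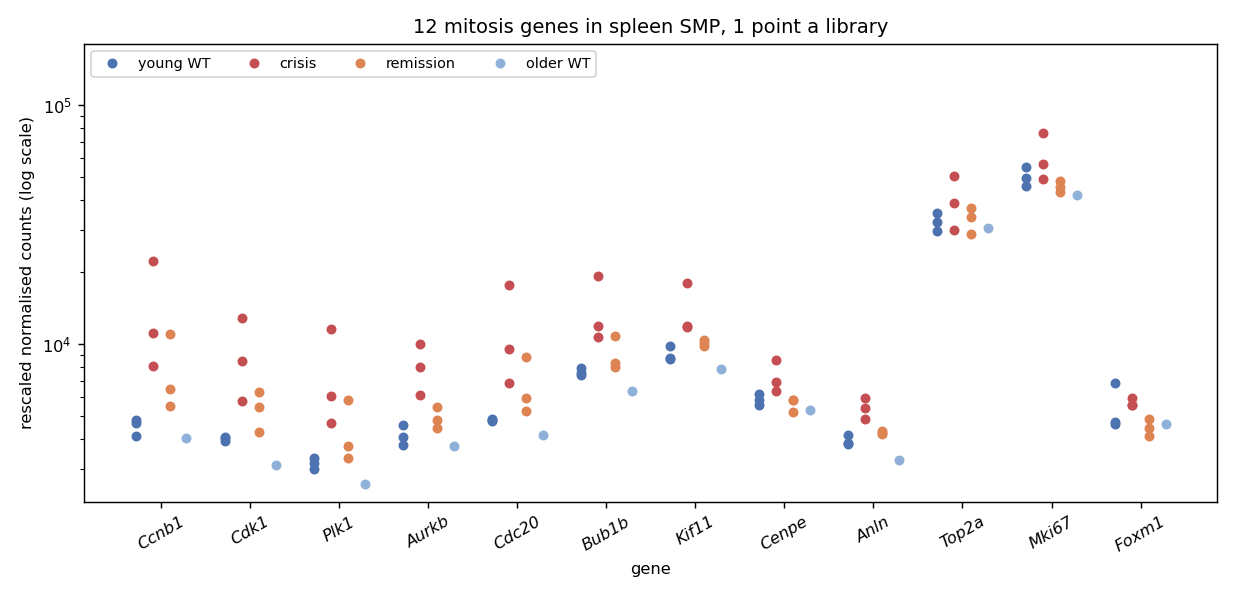
Rescaled normalised counts (log scale) of 12 of the genes in each spleen SMP library, 1 point a library, coloured by group. Ccnb1 lies at 8038 to 22244 in crisis against 4108 to 4784 in young WT, while Foxm1 at 5532 to 5920 falls within the young WT range of 4630 to 6848.

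Other cell cycle genes moved with them in spleen SMP. Of the other mitosis list 27 of 45 rose (median 0.71), of the DNA replication list 6 of 25 (0.57), led by cyclin E1 (Ccne1, 1.98) and Rrm2 (1.53), and of the CHR and CCAAT factors 3 of 12, led by E2f4 (1.26) and Mybl2 (1.23). Among the brakes Ccng1 (1.06) and Gadd45a (0.85) rose and Ccng2, a cyclin of resting cells, fell by 1.80. Markers of cell types moved in spleen SMP as well: 8 of 11 erythroid markers rose (median 1.68) and 6 of 7 stem and early progenitor markers fell (-1.53). The stem markers summed to 2422, 2246 and 1967 per 1000000 normalised counts in young WT and to 1337, 415.1 and 1372 in crisis, and the erythroid markers to 6492, 3162 and 1814 against 6836, 13134 and 7734. The library of mouse 2629, highest in the mitosis genes, was highest in the erythroid and lowest in the stem sum. Other marker sums were lower in crisis without overlap. The neutrophil sum was 809.9 to 1368 in young WT and 198.4 to 787.2 in crisis, and the macrophage sum 39.3 to 86.68 and 10.89 to 27.95. The megakaryocyte sum was 206.5 to 244.5 and 39.15 to 153.8, and the T and NK cell sum 11.1 to 24.73 and 1.948 to 8.687. The B cell sums overlapped, at 17.37 to 80.26 and 5.867 to 25.45. The part of these shifts of markers in the rise was not tested. Here too, more cells of a type and more RNA per cell cannot be told apart.

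In bone marrow SMP, where 10 of 11 erythroid markers rose in crisis as well (median 1.68) and 2 of 7 stem markers fell (median -0.64, all 7 below 0), 1 of the 40 genes passed, and it fell, beside 1.01% of all 15252 genes that were lower and 2.23% that passed in either direction. Cenpf was at 6824, 6902 and 7733 in young WT and at 4600, 5125 and 3762 in crisis (log2 -0.68, SE 0.124, adjusted p = 0.0381). It did not pass without crisis mouse 2629 or without any of the young WT mice, and 4 genes passed without crisis mouse 2608. The share of all genes in that last fit is not given. Ccnb1 was at 5551, 5654 and 5198 against 5193, 6424 and 6429, with overlap (0.13). The median of the 40 was -0.11, and 13 genes were lower in all 3 crisis libraries (14.9% of all genes) and 1 was higher (15.3%). With the columns as deposited the median was 0.00, with 20 values above 0 in place of 9 (all genes 0.11). The young WT SMP of spleen and of bone marrow came from different mice, so the mouse block acts on the crisis mice only. Organ and set of mice cannot be told apart among these young WT libraries. The fitted crisis effect was higher in spleen SMP than in bone marrow SMP for 40 of 40 genes (median difference 0.78), most for Ccnb1 (1.33, SE 0.35), Ube2c (1.31) and Plk1 (1.20), but none passed (smallest adjusted p = 0.102, 0% of all genes called). At an unadjusted p under 0.05 there were 38 of 40, and without the spleen SMP library of mouse 2608 34 of 40 passed. The shares of all genes for these counts are not given, so they are no result about the 40 genes alone. With the columns as deposited the median difference was 0.17 with 32 values above 0 (all genes -0.64), and with columns set to a total of 1000000 it was 0.58 with 39 above 0 (all genes -0.23).

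Partial remission was compared with crisis next. None of the 40 genes passed in any of the 6 populations, where 0 to 0.0303% of all genes did (limma). The counts at an unadjusted p under 0.05 were 17 in spleen SMP and 0 to 2 in the others, with no share of all genes given. The median change from crisis to remission was -0.10 in whole bone marrow, -0.12 in bone marrow MEP, 0.02 in spleen MEP and 0.00 in bone marrow SMP. These small medians moved with the scaling: whole bone marrow had 0.04 with columns set to a total of 1000000, and bone marrow MEP 0.02 and bone marrow SMP -0.14 with the columns as deposited. In spleen SMP the median was -0.51 (-0.32 as deposited and -0.31 at a total of 1000000), and 22 of the 40 genes were lower in all 3 remission libraries than in all 3 crisis libraries (9.25% of all genes were). Ccnb1 stood at 6437, 10997 and 5500 in the remission SMP, with mouse 2868 close to crisis mouse 2953 at 11045. Ccna2 at 6603, 15290 and 9543 overlapped crisis (log2 -0.88, SE 0.375, adjusted p = 0.342). The other 2 remission libraries lie between the young WT range of 4108 to 4784 and the lowest crisis value of 8038 for Ccnb1. Of 3 lists of cell type markers 0 genes passed, but each list had its fitted values on 1 side: all 11 erythroid markers had values below 0 (median -1.03), and all 7 stem and early progenitor markers (1.31) and all 6 megakaryocyte markers (1.01) values above 0. Their part in these differences was not tested.

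In whole spleen the remission mice were split. Mice 2976 and 32dscat, 33 and 32 days old, were above all 3 young WT spleens in 40 of 40 genes, with Ccnb1 at 22689 and 20783. Mouse 2726, 58 days old, was below all of them in 40 of 40, with Ccnb1 at 1834, Mki67 at 35775 and Top2a at 9118. The share of all genes that lay so in a single library is not given here. The summed level of the 40 genes was 15857, 12187 and 2386 per 1000000 in these 3. The median change from crisis was -1.19 with mouse 2726 and -0.07 without it. Markers set mouse 2726 apart too. Its B cell markers summed to 3522 per 1000000 against 372.7 and 435 in the other 2 remission spleens, its T and NK cell markers to 697.2 against 62.77 and 73.5, and its erythroid markers to 73886 against 167722 and 226542. The part of these cells in the split was not tested. Rasa3 stood at 21048 in mouse 2726, at 4480 and 4973 in the other 2, and at 15886 in older WT. The same 3 marker sums in older WT were 2662, 484.9 and 112276 per 1000000. Mouse 27265, whose whole spleen has conflicting labels, has a similar name and was also 58 days old. Whether samples or labels were exchanged was not tested, so the split cannot be read as an effect of age or state. In older WT (mouse 2761, 32 days old) the 40 genes summed to 4562 per 1000000, against 6856 to 10666 in young WT. That library was below all 3 young WT spleens in 40 of 40 genes, with Ccnb1 at 4368, again with no share of all genes given. Older WT libraries were below the young WT range in MEP too, with no test, at 6328 and 6615 per 1000000 in bone marrow MEP against 8340 to 8776 in young WT, and at 5910 and 7183 in spleen MEP against 8674 to 9400. In bone marrow SMP they were below it as well, at 4729 and 5035 against 5718 to 6202. The older WT library of spleen SMP, at 4502, lay within the young WT range of 4455 to 4879. In whole bone marrow the older WT libraries were at 10945 and 8833, above and below the young WT range of 9886 to 10155. The values 6328, 5910, 4729 and 10945 are those of mouse 27265, whose whole spleen has conflicting labels.

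Between the 2 progenitor populations of young WT mice, which are also the controls of the crisis comparisons, the 40 genes were mostly higher in MEP. In young WT bone marrow 37 were higher in MEP than in SMP and 1 was lower (median log2 difference 0.68), where 35.9% of all 15003 genes were higher and 74.3% differed. Birc5, survivin, differed most (1.63, SE 0.0586, adjusted p = 7.7e-07), then Cenpa, the histone that marks the centromere (1.44, SE 0.0676, adjusted p = 2.07e-06), and Ccnb1 (1.43). Kif23 was lower in MEP (-0.22, SE 0.0834, adjusted p = 0.0391), and Ect2 (0.05) and Cenpf (0.14) did not pass. Kif23 and Ect2 act together at the central spindle, and Cenpf was also the gene that fell in bone marrow SMP in crisis.

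Young WT spleen gave 39 of 40 higher in MEP (median 1.16), where 30.2% of all genes were higher and 65.9% differed. The spleen MEP and SMP libraries came from different mice, so population and set of mice cannot be told apart there. Birc5 (1.98), Ccna2 (1.90) and Ccnb1 (1.87) led, and Kif23 was lowest among those called (0.33, SE 0.0955, adjusted p = 0.0169). Cdc25b did not pass (0.48, adjusted p = 0.0948). In both organs all 25 DNA replication genes were higher in MEP (medians 1.08 and 1.31), Ccne1 most (4.47 and 4.05), and of the factors E2f4 (2.26 and 2.04). The brakes were split, with 6 higher and 8 lower of 14 in bone marrow, among them Ccng2 (-2.71). Scaling bears on this comparison: with the columns as deposited the medians of the 40 genes became 0.48 and 0.33, the counts called 16 and 10, and the values above 0 were 36 and 31 of 40. The median of all genes was -0.27 and -0.98 there, and the share of all genes called is not given.

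**Figure D5:**
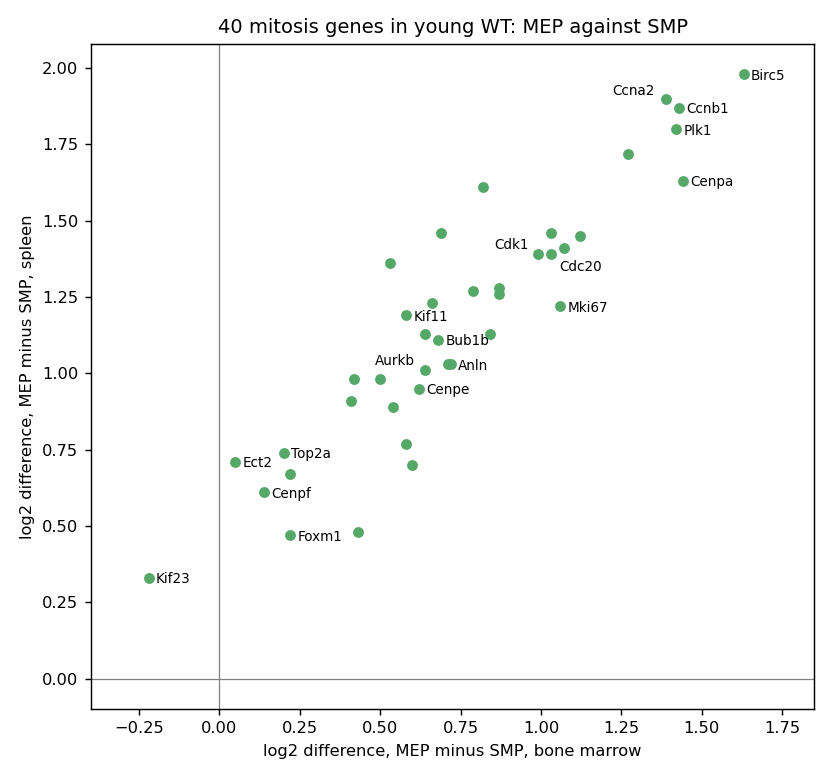
Log2 difference between MEP and SMP in young WT bone marrow (horizontal) and spleen (vertical) for each of the 40 genes, 1 point a gene. Points lie above 0 on both axes except Kif23, at -0.22 in bone marrow and 0.33 in spleen, and Birc5 is highest on both at 1.63 and 1.98.

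Whole spleen and whole bone marrow of young WT mice were compared as well. Of the 40 genes 1 was higher in spleen and 6 were lower (median -0.20), beside 14.7% of all genes higher and 13.1% lower. Cdc25b was the higher one (0.52, SE 0.145, adjusted p = 0.023), and Bub1b (-0.62, SE 0.154, adjusted p = 0.0142), Kif20b (-0.54), Ttk (-0.51), Kif2c, Mad2l1 and Foxm1 were lower. Without single young WT libraries the count of 7 ran from 0 to 11, and it was 22 with columns set to a total of 1000000, where the median was -0.47 with 3 values above 0 in place of 12 (all genes -0.25). Shares of all genes called in these fits are not given. In the same comparison 11 of 11 erythroid, 6 of 6 macrophage and 7 of 8 T and NK cell markers were higher in spleen, and 6 of 7 stem and 4 of 6 megakaryocyte markers were lower. The neutrophil markers summed to 735.6 to 1322 per 1000000 normalised counts in whole spleen and to 13513 to 14231 in whole bone marrow. The B cell markers summed to 1683 to 2005 and to 1741 to 2097. The part of these cell types in the differences was not tested.

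Levels can be compared between genes per kilobase of exon. On a scale common to the libraries, Mki67 had the highest rescaled count per kilobase in young WT in 5 of the 6 populations, 19514 ± 6183 (SD, n = 3) in whole spleen, 14063 ± 197.6 in whole bone marrow, 8545 ± 588.3 in bone marrow MEP and 4257 ± 354.4 in spleen SMP. In bone marrow SMP, Top2a (4419 ± 183.1) and Mki67 (4257 ± 203.3) differed by less than their spread. Cdc25c was lowest of the 40 in all 6, from 130.1 in spleen SMP to 279.2 in whole bone marrow. Cdc25b changed its place: its rank of 40 was 2 in whole spleen (10559 ± 1298) and 3 in whole bone marrow (7245 ± 985.5), but 24 and 26 in spleen and bone marrow MEP (1138 ± 401.6 and 1047 ± 104.2). The 63 assigned libraries span the 6 populations, so correlations over them include differences between populations. Over these libraries, the log2 levels most like that of Mki67 were those of Cenpe, Pttg1 and Prc1 (Pearson r = 0.968 each), Ube2c (0.964) and Anln (0.959). The least alike were Kif20b (0.454), Mad2l1 (0.525), Bub1b (0.558), Bub1 (0.636) and Cdc20 (0.685). These correlations describe the libraries and carry no test.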

How the data were processed

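The authors deposited normalised counts of 26286 genes in 64 libraries (a never negative signal, not raw counts) and regularised log2 values of 25287 genes. Bowtie2 2.2.0, RSEM, DESeq2 and the GRCm38 build are named in the submitters' processing notes, with no order, and strand in counting is not given in the sources used here. RNA was prepared with the KAPA mRNA HyperPrep kit, per the labels' protocols. The 1 whole spleen library with contradicting labels entered no comparison. Columns of the deposited normalised counts were divided by their median ratio to the geometric mean of their population (log2 factors -0.918 to 0.518), and genes whose mean reached 10 entered the tests on log2(value + 1) with limma 3.58.1 in R 4.3.3 (trend and robust moderation, two-sided, Benjamini-Hochberg over all genes tested, threshold 0.05). A log2 change on this scale understates that of low genes. Crisis, young WT and remission were compared within a population, with those groups' libraries only. Spleen against bone marrow and MEP against SMP used the mouse as a random block, since libraries of 1 mouse share it by label (estimated correlations 0.275, 0.55 and 0.316 for the crisis effect, and 0.195, 0 and -0.149 among young WT, where spleen MEP and SMP came from different mice). Young WT spleen SMP and bone marrow SMP also came from different mice. The fits were tested on simulated data. Raw read depth is not known from these values, so no counting interval is given.

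Genes set to be named were Ccnb1, Cdk1, Plk1, Aurkb, Cdc20, Top2a, Mki67, Foxm1, Bub1b, Kif11, Cenpe and Anln and the 3 highest and 3 lowest of the 40 in a comparison, and of each other list the 2 highest and 2 lowest. Values library by library are given for only some of these genes and comparisons. A few more were added by role. The members and lists were chosen with earlier results of these data known, among them the rise of G2 and M phase genes in whole spleen, which is no independent support. Alternatives were the deposited scale, columns set to a total of 1000000, a pseudocount of 10, no filter, all 4 groups in 1 fit, older WT added to the controls, the regularised log2 values, no mouse block, and leaving out each replicate.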

Additional observations from a re-analysis of the deposited data

Results flagged for a closer look

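The crisis effect differed between whole spleen and whole bone marrow for 37 of the 40 genes by the test of the difference itself. The smallest adjusted p-values (limma) were those of Kif2c, a kinesin that takes microtubules apart at centromeres (log2 difference 1.14, adjusted p = 0.000353), of Mad2l1 (0.99, adjusted p = 0.000494) and of Cdca8 (1.06, adjusted p = 0.000703). All 3 are larger in spleen.

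The whole spleen library with contradicting labels was set against the groups without being placed in one. The 40 genes summed to 11197 per 1000000 normalised counts in it, and 40 of 40 were above every young WT spleen (6856 to 10666 per 1000000 in sum). Against the crisis spleens (12882 to 17776 per 1000000 in sum), 39 of the 40 genes were below every library, as Ccnb1 at 17052 against at least 23922, and 1, Ube2c, lay within their range. These values of single genes are on the scale common to all libraries of whole spleen, the unassigned one included. No share of all genes is given beside these counts. Groups of 3 or fewer libraries were not tested for a library far from the others.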

How the results depend on the processing

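Counts of called genes among the 40 stayed within 1.5 times the reported one in 204 of the alternatives tried and moved in 41. A count of 0 that stayed at 0 is among the 204, as for remission against crisis in every population. In such comparisons few or no genes of any kind were called, so the 204 are no measure of stability there. The cause of a move was not tested. The share of all genes called is not given for these alternatives. In whole spleen in crisis the 40 calls were 0 with all 4 groups in 1 fit and 40 when mouse 2726 was also left out, an alternative chosen after seeing the data, and 39 to 40 when 1 replicate was left out. In whole bone marrow the 2 calls were 0 on the deposited scale, 1 with columns set to a total of 1000000, 0 with all 4 groups in 1 fit (0 without mouse 2726 too), 0 with the regularised log2 values, 0 with older WT added, and 0 to 1 without 1 replicate. Spleen MEP had 1 call with columns set to a total of 1000000, and 0 to 2 without 1 replicate, and bone marrow MEP 0 to 3. The 1 call of bone marrow SMP was 0 on the deposited scale, 0 with the regularised values, 0 with older WT added, and 0 to 4 without 1 replicate. The 21 calls of spleen SMP were 1 on the deposited scale, 0 with the regularised values, and 0 to 29 without 1 replicate. The 37 calls of the difference between the organs were 2 on the deposited scale and 31 to 39 without 1 replicate, and the 0 of the SMP difference were 0 to 34. Between MEP and SMP, the 38 calls in bone marrow were 16 and the 39 in spleen 10 on the deposited scale. The 7 calls between whole spleen and marrow were 0 on the deposited scale, 22 with columns set to a total of 1000000, and 0 to 11 without 1 replicate. With no replicate block of the mouse, the counts were 33 for the whole tissue difference, 0 for MEP, 0 for SMP, 36 and 39 for MEP against SMP and 8 between the whole organs. Remission against crisis had 0 calls in every alternative run.

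Single genes that passed between MEP and SMP and changed sign were, in bone marrow, Foxm1 (-0.02), Top2a (-0.05) and Kif20b (-0.02) with columns set to a total of 1000000 and Top2a (-0.01) on the deposited scale, and in spleen on the deposited scale Foxm1 (-0.35), Top2a (-0.09), Incenp (-0.06), Kif20b (-0.16), Cenpf (-0.22), Ect2 (-0.12), Kif23 (-0.50) and Bub3 (-0.13). Shares of called genes that were higher, on the reported scale, as deposited and at a total of 1000000, were 53.2, 47.5 and 13.7% in whole bone marrow, 93.1, 28.7 and 100% in bone marrow MEP, 48.2, 54.1 and 35% in spleen MEP, 54.7, 83.2 and 48.6% in bone marrow SMP, 48.3, 30.4 and 36.5% between MEP and SMP in bone marrow, 45.9, 8.4 and 34.1% in spleen, and 52.9, 49.6 and 26.4% between the whole organs.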

Other observations

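Cep55, a midbody protein needed for the final cut between daughter cells, went against the other late mitosis genes. It was named as the lowest of the 45 other mitosis genes, and its library values were looked up after that was seen. In whole spleen Cep55 stood at 354, 587.5 and 383.6 rescaled normalised counts in young WT and at 193.4, 124.2 and 208.5 in crisis, and it fell by 1.33 on the log2 scale (adjusted p = 0.00756, limma) where 44 of the 45 rose. In whole bone marrow it stood at 2417, 1926 and 2000 against 1352, 892.2 and 872.5 and fell by 1.05 (adjusted p = 0.0214). Remission libraries held 266.7, 244.2 and 286.8 in spleen and 1763, 1677 and 1947 in marrow. In young WT mice Cep55 was lower in MEP than in SMP, by a log2 difference of -2.75 in bone marrow (adjusted p = 0.00134) and of -2.90 in spleen (adjusted p = 5.42e-05). The spleen MEP and SMP came from different mice. In spleen SMP the crisis libraries, at 1620, 755.5 and 935.2, overlapped those of young WT at 1748, 1520 and 1670 (log2 change -0.65, adjusted p = 0.11).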
